A study of Mus musculus with 12 samples.

Results

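Gluconeogenesis genes of the mouse liver were followed as a set of 8 genes chosen by name for their part in the pathway. The set held Pcx, Pck1, Fbp1 and G6pc, which encode the enzymes, Slc37a4 and Slc2a2, which encode the transporters of the last steps, and Gcgr and Ppargc1a, which encode a hormone receptor and a transcriptional coactivator. All 8 of 8 were found by gene name among the 11289 genes measured. Liver RNA was sequenced from 12 C57BL/6J mice, with 4 each in the Con A + PBS, Con A + hWJ-MSCs and control groups. Concanavalin A (Con A), a lectin of plant origin that injures the liver through activated T cells, was injected into the tail vein at 15 mg/kg. PBS alone or mesenchymal stem cells from human Wharton's jelly (hWJ-MSCs) in PBS followed intravenously after 30 min, in a volume of 200 µL, and the liver was taken 24 h after Con A. The labels give an age of 8 to 10 weeks for all mice and 2000000 cells per treated mouse, where the methods of the study state fewer cells and younger male mice. What the control mice received is not given in the labels. The cells are human and were given to mice with an intact immune system, and a whole piece of liver holds hepatocytes, immune cells and vessel cells together.

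Gluconeogenesis is the making of new glucose from lactate, amino acids and glycerol, and the liver is its main site during fasting. Most of its enzymes also run glycolysis in the other direction, and the enzymes of the set carry the steps that glycolysis cannot reverse. Pyruvate carboxylase (Pcx) makes oxaloacetate in the mitochondrion, phosphoenolpyruvate carboxykinase (Pck1) turns it into phosphoenolpyruvate, the bisphosphatase Fbp1 removes a phosphate from fructose bisphosphate, and the catalytic subunit G6pc releases free glucose from glucose phosphate. Glucose phosphate reaches G6pc inside the endoplasmic reticulum through the translocase Slc37a4, and GLUT2, the product of Slc2a2, passes glucose across the hepatocyte membrane. Glucagon acts on its receptor Gcgr, raises cAMP and activates CREB at cAMP response elements, and the coactivator Ppargc1a amplifies the response. Insulin opposes this program.

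The genes lie on 7 chromosomes. In GRCm38 (mm10), the build of the deposited coordinates, the transcripts were Pck1 (ENSMUSG00000027513) at chr2:173153048-173159273 on the plus strand, G6pc (ENSMUSG00000078650) at chr11:101367561-101377903 on the plus strand, Fbp1 (ENSMUSG00000069805) at chr13:62864753-62888282 on the minus strand and Pcx (ENSMUSG00000024892) at chr19:4510472-4621752 on the plus strand. Slc37a4 (ENSMUSG00000032114) was at chr9:44398176-44402963 on the plus strand, Ppargc1a (ENSMUSG00000029167) at chr5:51454249-51553921 on the minus strand, Slc2a2 (ENSMUSG00000027690) at chr3:28697903-28728356 on the plus strand and Gcgr (ENSMUSG00000025127) at chr11:120530699-120538984 on the plus strand. All 8 transcripts were protein-coding in GENCODE M21, with between 5 exons (G6pc) and 21 exons (Pcx), and 5 of the 8 had the same start and end there.

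Promoter sequence upstream of 4 of the genes is shown because the hormone response of this program is read at such elements, and these genes had a match to a cAMP, insulin or HNF1 motif in the 250 bases before a RefSeq start. The stretches are RefSeq sequence of GRCm38.p6, written on the strand of the gene and ending before the transcript begins. Capitals mark the letters that matched. For Pck1 (chr2:173152823-173153047, plus strand) they are CGTCA, the cAMP response element core read on the other strand, 90 bases before the RefSeq start, and ATTAAC, the HNF1 motif on the other strand, 192 bases before it. For G6pc (chr11:101367466-101367560, plus strand) they are TGTTTTG, the core of the insulin response element, 174 bases before the start, and GTTAAT, the HNF1 motif, 221 bases before it. For Slc37a4 (chr9:44396826-44396945, plus strand) the capitals are TGACG, the cAMP core, 61 bases before the first of its RefSeq starts. For Ppargc1a (chr5:51567726-51567845, minus strand) they are CGTCA, 49 bases before a RefSeq start that lies 13804 bases upstream of the transcript in the deposited table.
Pck1: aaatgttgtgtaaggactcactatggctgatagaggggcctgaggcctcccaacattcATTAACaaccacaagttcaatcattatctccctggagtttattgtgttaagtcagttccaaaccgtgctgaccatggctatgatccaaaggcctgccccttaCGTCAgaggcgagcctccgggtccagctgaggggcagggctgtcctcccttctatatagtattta
G6pc: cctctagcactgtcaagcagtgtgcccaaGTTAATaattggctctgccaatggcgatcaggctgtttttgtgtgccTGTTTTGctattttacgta
Slc37a4: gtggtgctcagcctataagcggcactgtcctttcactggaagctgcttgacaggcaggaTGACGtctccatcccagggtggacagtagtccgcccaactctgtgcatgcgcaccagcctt
Ppargc1a: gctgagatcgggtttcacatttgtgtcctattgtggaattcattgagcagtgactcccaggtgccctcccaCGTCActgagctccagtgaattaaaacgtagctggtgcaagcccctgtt
The motifs were picked with these sequences in view and were searched on both strands. The cAMP core TGACG occurred in 17.8% of 32851 mouse promoter windows of 250 bases, the HNF1 motif GTTAAT in 6.43% and the insulin response core TGTTTTG in 5.56%. The complete cAMP element TGACGTCA, which contains the core, occurred in 1.55% of windows and the FOXO core TGTTTAC in 3.17%, and neither was found before any of the 8 genes. A TATA box (TATAAA, 12.4% of windows) matched before G6pc and Slc37a4. These letters were matched in sequence only, and no binding was measured.

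The values are scores, whole numbers that had already been normalized between mice before deposit, and changes are given as log2 fold changes of score + 1. A gene was called when its Benjamini-Hochberg adjusted p in limma over all 11289 genes was below 0.05 and its fold change exceeded 1.5. The total score ran from 17649654 to 17657159 per mouse, and the depth behind the scores is unknown. The 12 mice shared 2549 distinct values, so the highest genes moved in steps: Cps1 stood at 147960 in every mouse. Along the leading principal component (64.8% of the variance), control mice lay between -79.6 and -66.9 and Con A + PBS mice between 37.5 and 63.8. Con A + PBS mouse 4 stood apart on the second component, at -55.2 where the other Con A + PBS mice were between -15.0 and 7.57, and results of the set that rest on it are given without it. The summed score of 9 hepatocyte markers was 1259764 to 1498661 in control livers, 678476 to 744261 after Con A + PBS and 709189 to 791954 after Con A + hWJ-MSCs. That of 13 leukocyte markers was 1936 to 2827, 3822 to 5933 and 3132 to 5828 in the same order. No marker was at 0 in all mice, the albumin gene Alb was at the largest score in every mouse, and the part of these markers in the changes below was not tested. With Con A 6 of the 9 hepatocyte markers fell, 9 of the 13 leukocyte markers rose and 2 fell, and 4 of 10 endothelial and stellate markers fell and 1 rose, beside 38.8% of all genes called (19.5% up and 19.2% down). With hWJ-MSCs against Con A + PBS, 0 hepatocyte and 0 leukocyte markers were called in limma, with 1 of each at an unadjusted p below 0.05 and a fold change above 1.5, beside 8.58% and 15.0% of all genes. Of the 10 endothelial and stellate markers 3 were called there, with Stab2 higher (0.59) and Cdh5 (-0.66) and Lyve1 (-0.90) lower on the log2 scale, and the count was 0 without Con A + PBS mouse 1, hWJ-MSCs mouse 2 or hWJ-MSCs mouse 3. In a whole liver, fewer cells of a type and less RNA per cell cannot be told apart.

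The glucose transporter gene Slc2a2, the glucagon receptor gene Gcgr, G6pc, Slc37a4 and Ppargc1a fell in Con A + PBS livers against control, and Pcx rose. Slc2a2 fell most of the set, 10.2-fold, and G6pc and Gcgr fell 2.97-fold and 2.94-fold. In all, 6 of 8 genes were called, 1 up and 5 down, where 38.8% of all genes were called in this comparison, 19.5% up and 19.2% down. The median log2 fold change of the 8 genes was -0.78, and that of all genes tested was 0.05. With hWJ-MSCs, against Con A + PBS, 3 of 8 genes were called, where 8.58% of all genes were, 4.2% up and 4.38% down: Slc2a2 and Slc37a4 rose and Pcx fell. Here the median was 0.06, and that of all genes tested was 0.00024. Between Con A + hWJ-MSCs and control livers 3 of 8 genes were called, against 26.7% of all genes (13.6% up and 13.1% down), and G6pc, Slc2a2 and Pck1 were lower. The Con A + PBS mice enter the first and the second comparison, and the control mice the first and the last, so these results share mice. At an unadjusted p below 0.05 with the same fold change, 6, 5 and 3 of the 8 genes passed in the 3 comparisons, against 39.5%, 15.0% and 28.2% of all genes. At a fold change above 2 with the adjusted p, 3, 1 and 2 passed, against 21.2%, 3.13% and 13.6%.

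**Figure D1:**
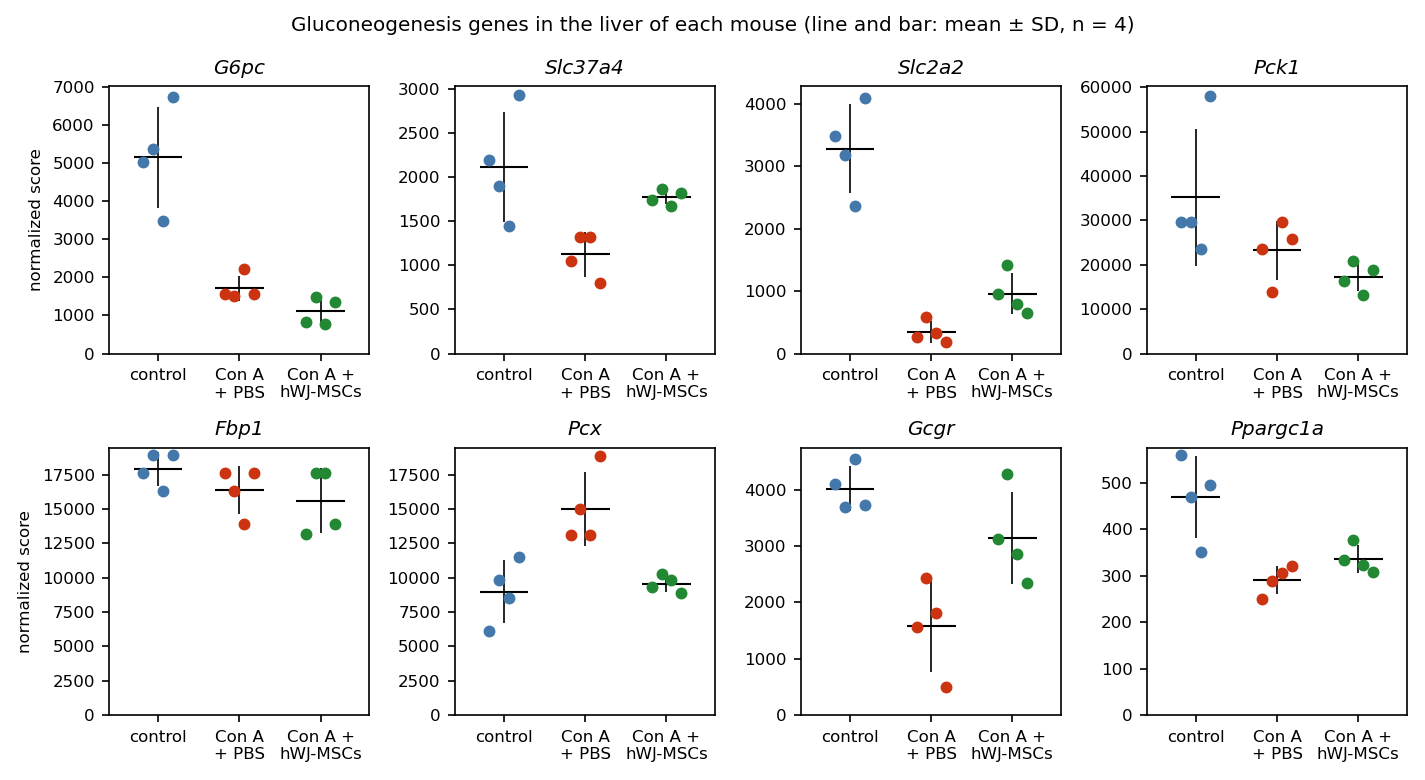
Normalized score (linear axis from 0) of each of the 8 genes in each mouse, with a panel per gene and a column per group, the line and bar giving mean ± SD (n = 4). Control mice stand above the Con A + PBS mice for G6pc, Slc37a4, Slc2a2, Gcgr and Ppargc1a and below them for Pcx, while the groups overlap for Pck1 and Fbp1.

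Among the genes of glucose output, Slc2a2 changed most with Con A. It had scores of 3478, 3186, 2367 and 4088 in control mice 1 to 4, 270, 592, 336 and 179 in Con A + PBS mice, and 960, 1412, 800 and 652 in Con A + hWJ-MSCs mice. The 3 groups did not overlap: control mice were highest, hWJ-MSCs mice intermediate and Con A + PBS mice lowest. The mean score was 3280 ± 715 (SD, n = 4) in control, 344 ± 177 (SD, n = 4) after Con A + PBS and 956.0 ± 329 (SD, n = 4) with hWJ-MSCs. The log2 fold change was -3.36 (SE 0.33) for Con A + PBS against control, with an adjusted p of 5.81e-06 in limma. It was 1.55 (SE 0.33) for Con A + hWJ-MSCs against Con A + PBS, a 2.92-fold rise with an adjusted p of 0.0225 in limma. The rise left Slc2a2 3.51-fold below control, with a log2 fold change of -1.81 (SE 0.33) and an adjusted p of 0.001 in limma. The call with hWJ-MSCs was lost when Con A + PBS mouse 1 (adjusted p 0.0744), hWJ-MSCs mouse 2 (0.0738) or hWJ-MSCs mouse 3 (0.0574) was left out of the limma fit. In those fits the log2 fold change of Slc2a2 was 1.48, 1.34 and 1.61. There 0 of the 8 genes were called, beside 7, 18 and 7 of the 11273 genes with a unique name, where 968 were called with all mice. At an unadjusted p below 0.05 in limma with the same fold change, 5, 5 and 4 of the 8 passed, beside 1572, 1307 and 1527 of the 11273. Without Con A + PBS mouse 4 the call of Slc2a2 held, at a log2 fold change of 1.28 and an adjusted p of 0.0434 in limma.

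G6pc, which completes the pathway, moved differently. Its scores were 5012, 5357, 3476 and 6715 in control mice 1 to 4, 1556, 1518, 2209 and 1549 in Con A + PBS mice, and 820, 1470, 778 and 1359 in Con A + hWJ-MSCs mice. Again no group overlapped another, but here the hWJ-MSCs mice were the lowest. The mean was 5140.0 ± 1331 (SD, n = 4) in control, 1708 ± 334 (SD, n = 4) after Con A + PBS and 1107 ± 359 (SD, n = 4) with hWJ-MSCs. Against control, G6pc fell in Con A + PBS livers (log2 fold change -1.57, SE 0.24, adjusted p 0.000188 in limma). In Con A + hWJ-MSCs livers it was 4.71-fold below control (log2 fold change -2.23, SE 0.24, adjusted p 2.97e-05 in limma). Against Con A + PBS, the hWJ-MSCs livers gave a log2 fold change of -0.67 (SE 0.24) that was not called, at an adjusted p of 0.0793 in limma.

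Slc37a4, whose product feeds G6pc, had scores of 2194, 1902, 1448 and 2931 in control mice 1 to 4, 1054, 1327, 1320 and 800 in Con A + PBS mice, and 1746, 1865, 1680 and 1824 in Con A + hWJ-MSCs mice. The Con A + PBS mice lay below all others, and the hWJ-MSCs mice lay within the control range and close together. It fell 1.86-fold with Con A (log2 fold change -0.90, SE 0.20, adjusted p 0.00264 in limma). It rose with hWJ-MSCs (log2 fold change 0.69, SE 0.20, adjusted p 0.0465 in limma). The call of this rise was lost in 8 of 12 fits that left out a mouse, while its log2 fold change stayed between 0.53 and 0.78 over the 12 fits. Without Con A + PBS mouse 4 the adjusted p in limma was 0.107. Against control, hWJ-MSCs livers differed by -0.21 on the log2 scale, with an interval from -0.65 to 0.24.

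The first steps, from pyruvate to phosphoenolpyruvate, did not move together. Pcx had scores of 6134, 9812, 8492 and 11525 in control mice 1 to 4, 13131, 15006, 13131 and 18853 in Con A + PBS mice, and 9344, 10298, 9812 and 8856 in Con A + hWJ-MSCs mice. All Con A + PBS mice were above all other mice, and the hWJ-MSCs mice lay within the control range. Pcx rose 1.7-fold with Con A (log2 fold change 0.76, SE 0.18, adjusted p 0.00389 in limma). It fell with hWJ-MSCs against Con A + PBS (log2 fold change -0.64, SE 0.18, adjusted p 0.0443 in limma). That call was lost in 10 of 12 fits without a mouse, and without Con A + PBS mouse 4 the log2 fold change was -0.52 with an adjusted p of 0.1 in limma. The difference between hWJ-MSCs and control livers was 0.13 on the log2 scale, with an interval from -0.27 to 0.53.

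Pck1, which commits oxaloacetate to glucose, had scores of 29649, 29649, 23572 and 58067 in control mice 1 to 4, 23572, 13926, 29649 and 25790 in Con A + PBS mice, and 16310, 20852, 13195 and 18904 in Con A + hWJ-MSCs mice. Control mouse 4 was far above the rest, and the Con A + PBS mice overlapped both other groups. The hWJ-MSCs mice were all below the control mice. The mean was 35234 ± 15489 (SD, n = 4) in control, 23234 ± 6694 (SD, n = 4) after Con A + PBS and 17315 ± 3318 (SD, n = 4) with hWJ-MSCs. The first and the second comparison did not call it: the log2 fold change was -0.57 (95% interval -1.2 to 0.06) for Con A + PBS against control and -0.39 (95% interval -1.02 to 0.24) for hWJ-MSCs against Con A + PBS. Between Con A + hWJ-MSCs and control, Pck1 was 1.94-fold lower (log2 fold change -0.96, SE 0.29, adjusted p 0.0197 in limma). Without control mouse 4 this was -0.69 with an adjusted p of 0.052, and without hWJ-MSCs mouse 3 the adjusted p was 0.0624 in limma.

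Fbp1 had scores of 17650, 18917, 16327 and 18917 in control mice 1 to 4, 17650, 16327, 13937 and 17650 in Con A + PBS mice, and 13212, 17650, 17650 and 13937 in Con A + hWJ-MSCs mice. The groups overlapped throughout. Its 12 scores took only 5 distinct values, since high scores in this table come in groups of 10 genes with close values and a median step of 6.39% between groups. The log2 fold change was -0.14 (95% interval -0.43 to 0.16) with Con A, -0.08 (95% interval -0.38 to 0.22) with hWJ-MSCs against Con A + PBS, and -0.21 (95% interval -0.51 to 0.09) with hWJ-MSCs against control. All 3 intervals stayed within a 1.5-fold change. Pck1 and Pcx, with 9 and 10 distinct values, lie in the same high range.

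The regulators of the program also fell with Con A. Gcgr, the receptor through which glucagon starts it, had scores of 4097, 3690, 4548 and 3738 in control mice 1 to 4, 1562, 2437, 1814 and 500 in Con A + PBS mice, and 3118, 4272, 2857 and 2336 in Con A + hWJ-MSCs mice. All control mice were above all Con A + PBS mice, and the hWJ-MSCs mice overlapped both groups. Gcgr fell with Con A (log2 fold change -1.55, SE 0.38, adjusted p 0.00401 in limma), and by a log2 fold change of -1.07 without Con A + PBS mouse 4, which held the lowest score. The hWJ-MSCs livers exceeded Con A + PBS livers by a log2 fold change of 1.17 (SE 0.38), not called at an adjusted p of 0.0567 in limma. Without Con A + PBS mouse 4 this difference was 0.69 (adjusted p 0.0653 in limma), and without Con A + PBS mouse 2 it was called (1.45, adjusted p 0.023). Against control, hWJ-MSCs livers had a log2 fold change of -0.38, with an interval from -1.2 to 0.44.

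Ppargc1a, the coactivator that cAMP signaling induces in the fasted liver, had scores of 560, 470, 350 and 494 in control mice 1 to 4, 250, 288, 306 and 320 in Con A + PBS mice, and 334, 377, 322 and 308 in Con A + hWJ-MSCs mice. Every Con A + PBS mouse was below every control mouse, and the hWJ-MSCs mice overlapped both groups. It fell 1.59-fold with Con A (log2 fold change -0.67, SE 0.14, adjusted p 0.00151 in limma), and the call was lost without control mouse 1, where the log2 fold change of -0.58 did not exceed 1.5-fold. Between hWJ-MSCs and Con A + PBS livers it was 0.21 (95% interval -0.10 to 0.51). Against control, hWJ-MSCs livers had a log2 fold change of -0.47 with an adjusted p of 0.0189 in limma, below the 1.5-fold threshold.

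**Figure D2:**
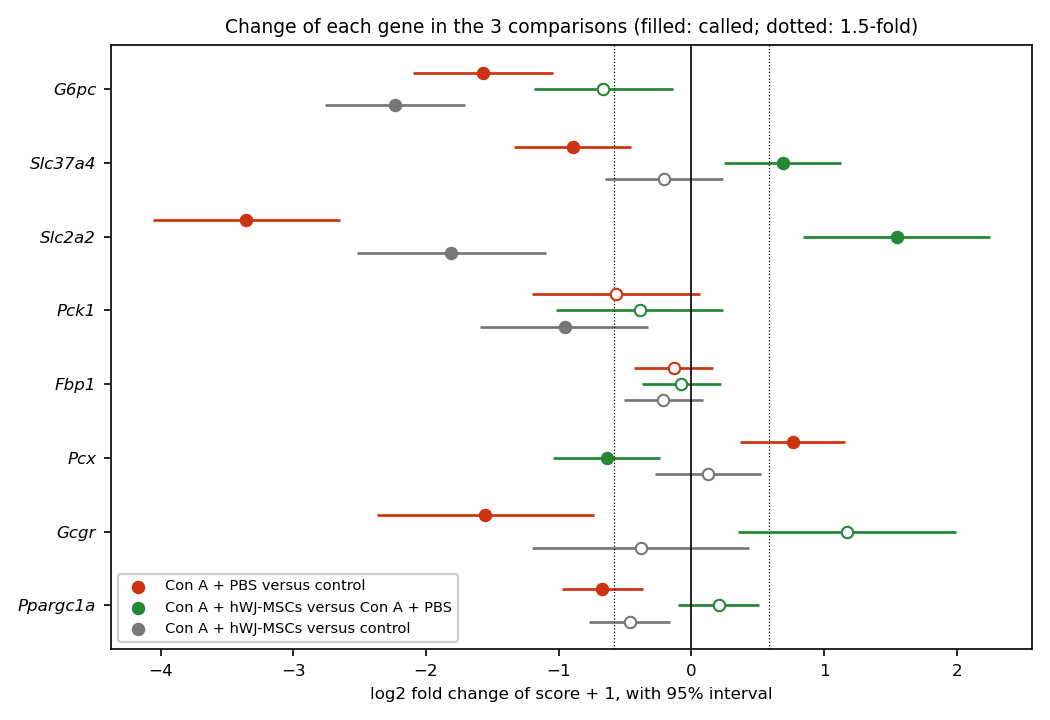
Log2 fold change of score + 1 with its 95% interval from limma, for each gene (rows) in the 3 comparisons (colours), where filled points are called and dotted lines mark a 1.5-fold change. Slc2a2 has the largest fall with Con A, at -3.36, and the largest rise with hWJ-MSCs, at 1.55, while G6pc lies below 0 in all 3 comparisons and the intervals of Fbp1 hold 0 in all 3.

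A test that counts mice alone was also run. In the two-sided exact permutation test of 4 against 4 mice, the smallest possible p is 0.0286, and it was reached for 6 of 8 genes with Con A, for 4 of 8 with hWJ-MSCs against Con A + PBS and for 3 of 8 with hWJ-MSCs against control. These are the genes whose groups did not overlap, which held for 50.4%, 23.5% and 37.9% of all genes in the 3 comparisons. Adjusted over the 24 tests, this p became 0.0527, so no single gene passed by that test. Against Con A + PBS the genes without overlap were G6pc, Pcx, Slc37a4 and Slc2a2.

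The genes also differed from mouse to mouse within a group. Among control mice, mouse 4 was highest for 5 of 8 genes (Pck1, G6pc, Pcx, Slc37a4 and Slc2a2) and mouse 3 lowest for 6 of 8 (Pck1, G6pc, Fbp1, Slc37a4, Ppargc1a and Slc2a2). Among hWJ-MSCs mice, mouse 2 was highest for 7 of 8, all but Fbp1. Con A + PBS mouse 4 was lowest for Slc37a4, Slc2a2 and Gcgr and highest for Pcx and Ppargc1a. The correlation of deviations from the group means over the 12 mice was 0.787 for Slc2a2 with Gcgr, 0.748 for Pck1 with G6pc, 0.729 for Slc37a4 with Slc2a2 and 0.0521 for Pck1 with Fbp1, as a description, in mice whose scores were scaled together.

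The genes whose pattern over the 12 mice was most like each gene of the set were ranked by Pearson's r of log2 scores, as a description. Slc2a2 was followed most closely by Slc25a10 (r = 0.995), Dixdc1 (0.992) and Mug2 (0.99). Slc25a10, the mitochondrial dicarboxylate carrier, is itself one of the genes of substrate entry. For Gcgr the closest were Pbld1 (0.99), Mettl7a1 (0.99) and Arhgef19 (0.989), and their deviations from the group means still correlated at 0.981 to 0.989. For G6pc they were Arhgef11 (0.975), Epg5 (0.97) and Klhl24 (0.97), and for Pcx Adnp2 (0.961), Nup205 (0.954) and Rab35 (0.954). Ppargc1a was most like Fam13a (0.953), Gucy1a3 (0.949) and Fam213a (0.948), and Slc37a4 most like Map2k6 (0.936), Ptgr2 (0.934) and Stard5 (0.928). The highest r was lower for Pck1 and Fbp1, with Il6ra (0.915), Frmd4a (0.906) and Magi3 (0.898) for Pck1 and Nck2 (0.897), Ptrf (0.875) and Wls (0.837) for Fbp1.

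The rest of the pathway was described by 8 lists, of which 96 of 102 genes were in the table. With Con A, 44 of the 96 were called, 19 higher and 25 lower, beside 38.8% of all genes (19.5% up and 19.2% down). With hWJ-MSCs against Con A + PBS 16 were called, 10 higher and 6 lower, beside 8.58% of all genes (4.2% up and 4.38% down). The counts of single lists that follow stand beside the same shares and were not tested as groups. Without Con A + PBS mouse 4, the calls of Eno1, Aqp9, Adcy9, Pde4b and Nr1h4 with Con A were lost and those of Got1, Mpc1, Slc25a1 and Gbe1 gained. The second count rests on single mice. It was 0 without Con A + PBS mouse 1, hWJ-MSCs mouse 2 or hWJ-MSCs mouse 3, 3 without Con A + PBS mouse 4, Mpc2 and Pde4b among them, and 32 without Con A + PBS mouse 2. Leaving out Con A + PBS mouse 3 or hWJ-MSCs mouse 1 gave 7. At an unadjusted p below 0.05 with the same fold change, the counts without the first 3 mice named were 26, 23 and 27, and 30 with all mice. Calls over the 11273 genes with a unique name fell in these fits as well, from 968 to 7, 18 and 7. The alternative isoforms Pck2, which works in the mitochondrion, and G6pc3, which is widely expressed, were not called in any comparison, and Pck2 ranged from 74 to 146 over the 12 mice.

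**Figure D3:**
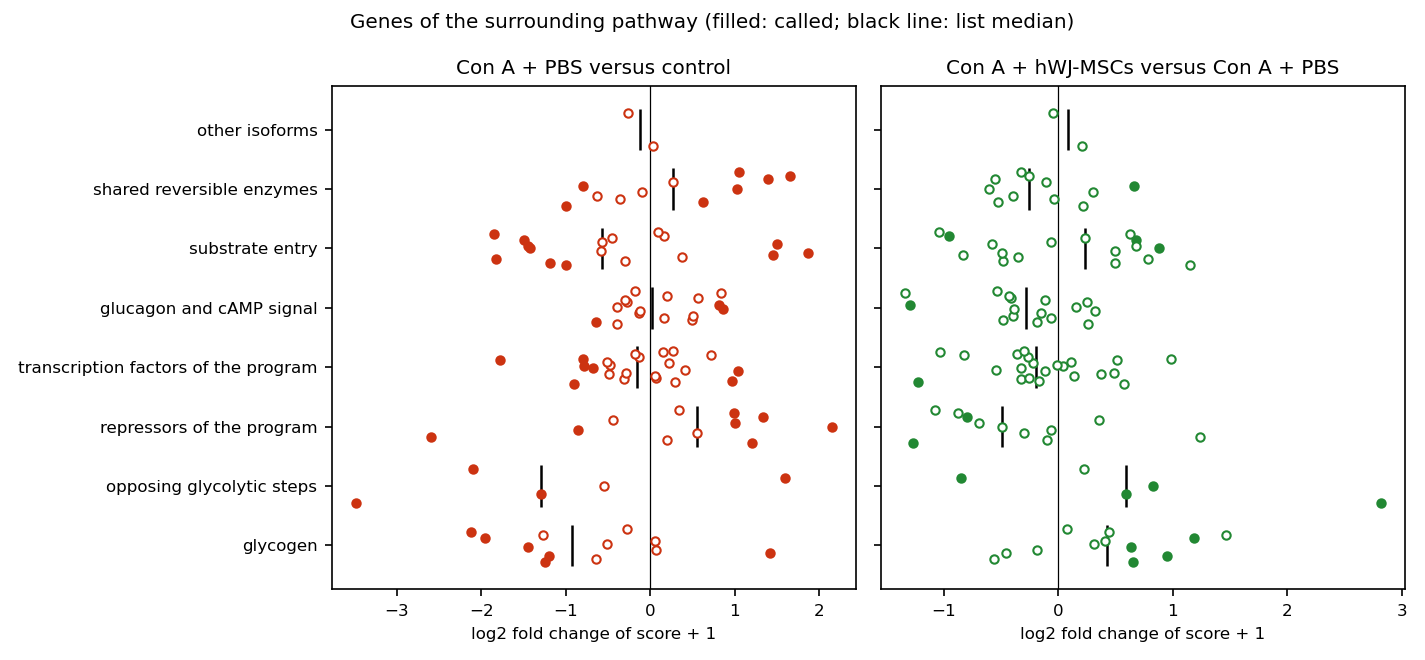
Log2 fold change of score + 1 of each gene in the 8 lists around the set (rows), for Con A + PBS against control on the left and Con A + hWJ-MSCs against Con A + PBS on the right, where filled points are called and black lines mark list medians. Glycogen genes have a median of -0.92 on the left and 0.43 on the right.

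Of 11 enzymes that gluconeogenesis shares with glycolysis or the malate shuttle, 5 rose and 2 fell with Con A. Pgk1 rose by a log2 fold change of 1.66, Pgam1 by 1.39, Tpi1 by 1.05 and Gpi1 by 1.02, all enzymes of the common trunk. The malate dehydrogenase gene Mdh1 fell by 0.80 on the log2 scale. With hWJ-MSCs only Mdh1 was called among the 11, higher by 0.66 (adjusted p 0.0317 in limma).

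Of 17 genes that bring substrate in, 7 fell and 3 rose with Con A, with a median of -0.57. Among those that fell, the amino acid transporter Slc38a4 changed by -1.85 and the alanine transaminase Gpt by -1.83. Lactate dehydrogenase A (Ldha) rose by 1.87 and the lactate and pyruvate transporter Slc16a1 by 1.51. Mpc2, a subunit of the mitochondrial pyruvate carrier, had scores of 5255, 3594, 4289 and 3750 in control mice 1 to 4, 1454, 1874, 1830 and 1170 in Con A + PBS mice, and 3200, 3322, 2792 and 2290 in hWJ-MSCs mice. None of its groups overlapped, and it fell with Con A (log2 fold change -1.42) and rose with hWJ-MSCs (0.89, adjusted p 0.0218 in limma). Slc25a10 also fell with Con A (-1.49) and rose with hWJ-MSCs (0.68), with hWJ-MSCs mouse 4 (1332) below Con A + PBS mouse 2 (1374). Further, Slc38a2, an alanine transporter, was lower with hWJ-MSCs than with Con A + PBS (-0.95). Against control 8 of the 17 were lower and 2 higher in hWJ-MSCs livers, beside 13.1% and 13.6% of all genes.

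Of 16 genes that carry the signal from glucagon to its targets, 2 rose and 1 fell with Con A: the G protein subunit Gnb1 (0.86), the cAMP phosphodiesterase Pde4b (0.81) and the adenylyl cyclase Adcy9 (-0.64, adjusted p 0.0496 in limma). Without Con A + PBS mouse 4, Pde4b was at 0.52, below the 1.5-fold threshold, and Adcy9 was not called (-0.53, adjusted p 0.121 in limma), as in 8 of the 12 fits without a mouse, which left 1 of the 16 called. Only Pde4b was called with hWJ-MSCs against Con A + PBS, lower by -1.30. Its scores were 502, 371, 382 and 932 in Con A + PBS mice 1 to 4 and 257, 170, 206 and 200 in hWJ-MSCs mice. No hWJ-MSCs mouse reached the lowest Con A + PBS mouse. Creb1 and its coactivator Crtc2 were not called in any comparison, at log2 fold changes of 0.16 and -0.13 with Con A. Sik2, a kinase that restrains Crtc2, was lower in hWJ-MSCs livers than in control (-0.71).

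Of 22 transcription factors and cofactors of the program, 5 fell and 2 rose with Con A. Klf15, a factor that drives amino acid breakdown in fasting, fell by 1.78, Cebpa fell by 0.90 and Foxo3 fell by 0.68 on the log2 scale, while Foxa3 and Creb3l3 rose by 1.04 and 0.97. Hnf4a and Foxo1 were among the 15 not called, and Hnf4a had a log2 fold change of 0.23 (adjusted p 0.397 in limma). Only Cebpb was called with hWJ-MSCs against Con A + PBS, lower by -1.23 (adjusted p 0.0375 in limma). Its scores were 767, 374, 987 and 1176 in hWJ-MSCs mice 1 to 4 and 1814, 1332, 1723 and 2414 in Con A + PBS mice, with no overlap. Against control Cebpb was lower too, at -0.93, a call lost without Con A + PBS mouse 1 or 3, hWJ-MSCs mouse 1 or 2, or control mouse 1 or 4.

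Of 11 genes known to hold the program back, 5 rose and 2 fell with Con A. Socs3, an inhibitor that STAT3 induces, rose by 2.15, Trib1 by 1.34, Bhlhe40 by 1.21 and Stat3 itself by 1.00 on the log2 scale. Nr0b2, which encodes the orphan repressor SHP, fell by 2.59, with scores of 935 to 1029 in control and 22 to 369 in Con A + PBS mice. The score of 22 was that of Con A + PBS mouse 4, without which the log2 fold change was -1.65, still called. Without control mouse 1 Bhlhe40 was not called (0.98, adjusted p 0.0574 in limma). Prkaa2, a catalytic subunit of AMPK, fell by 0.86. Trib1 (-0.80) and Bhlhe40 (-1.27) fell with hWJ-MSCs against Con A + PBS, and the other 9 were not called.

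Of 5 genes that work against gluconeogenesis at the irreversible steps, 3 fell and 1 rose with Con A, and 3 rose and 1 fell with hWJ-MSCs against Con A + PBS. The liver pyruvate kinase Pklr, which undoes the work of Pck1, had scores of 5925, 3810, 2107 and 5144 in control mice 1 to 4, 978, 1088, 950 and 722 in Con A + PBS mice, and 1236, 1337, 991 and 839 in hWJ-MSCs mice. All control mice were above all others, and the other groups overlapped. Pklr fell 4.28-fold with Con A (log2 fold change -2.10, SE 0.28, adjusted p 5.65e-05 in limma) and was not called with hWJ-MSCs (0.23, adjusted p 0.583). The phosphofructokinase gene Pfkl, which opposes Fbp1, had scores of 477, 769, 638 and 797 in control mice 1 to 4, 2234, 1723, 1734 and 2354 in Con A + PBS mice, and 1280, 819, 1256 and 1142 in hWJ-MSCs mice. The 3 groups did not overlap, with the hWJ-MSCs mice between the others. Pfkl rose with Con A by 1.60 (SE 0.19) and fell with hWJ-MSCs by 0.85 on the log2 scale (adjusted p 0.0252 in limma). Pfkfb1, which makes and removes the activator of that step, rose with hWJ-MSCs (0.83, adjusted p 0.0327 in limma).

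The log2 ratio of the opposing genes was then taken within each mouse, a comparison chosen after the values had been seen and given as a description, with no p. Scores of different genes are not on the same scale, so only differences between groups are read from a ratio. The Pfkl/Fbp1 ratio was -5.21, -4.62, -4.68 and -4.57 in control mice 1 to 4, -2.98, -3.24, -3.01 and -2.91 in Con A + PBS mice, and -3.37, -4.43, -3.81 and -3.61 in hWJ-MSCs mice. No group overlapped another. The groups of Pfkl had not overlapped either and Fbp1 was not called, so this ratio restates Pfkl. Its group means differed by 1.73 between Con A + PBS and control, -0.77 between hWJ-MSCs and Con A + PBS, and 0.96 between hWJ-MSCs and control. For Pklr/Pck1 the means differed by -1.53 between Con A + PBS and control and by -0.91 between hWJ-MSCs and control, without overlap, where the groups of Pklr had not overlapped either. The hWJ-MSCs mice overlapped the Con A + PBS mice in this ratio (difference 0.62).

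**Figure D4:**
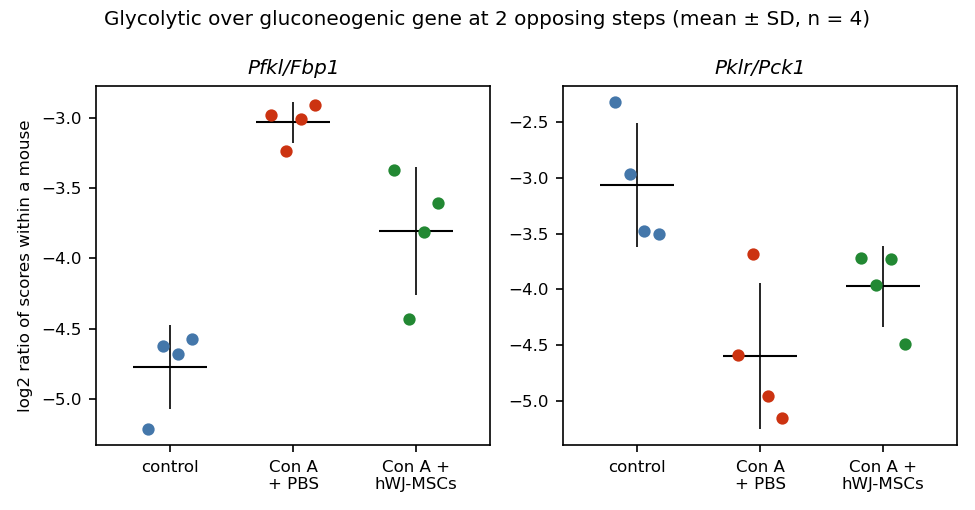
Log2 ratio of a glycolytic gene to the gluconeogenic gene of the opposing step within each mouse, in 2 panels by group, where the line and bar give mean ± SD (n = 4). For Pfkl/Fbp1 the mean is -4.77 for control mice, -3.03 after Con A + PBS and -3.80 with hWJ-MSCs.

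Glycogen, the other source and sink of hepatic glucose phosphate, was covered by 12 genes, of which 5 fell and 1 rose with Con A. Glycogen phosphorylase (Pygl) fell by 2.12, the phosphatase targeting subunit Ppp1r3b fell by 1.96, Phka2 fell by 1.45 and glycogen synthase (Gys2) fell by 1.2 on the log2 scale. Pgm1, with scores of 64 to 125 in control mice, rose by 1.42. Pgm2, with scores of 3476 to 3784 there, was not called (0.07, adjusted p 0.667 in limma). With hWJ-MSCs against Con A + PBS 4 of the 12 rose, among them Ppp1r3b (1.19), Gys2 (0.95) and Phka2 (0.64), and 8 were not called. Gys2 had scores of 714, 840, 806 and 320 in Con A + PBS mice 1 to 4 and 1369, 1222, 1389 and 923 in hWJ-MSCs mice. No mouse of either group reached the other, and Gys2 was not called between hWJ-MSCs and control livers (-0.25, adjusted p 0.469 in limma). Pygl stayed lower than control with hWJ-MSCs (-1.67).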

How the data were processed

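The labels put 12 mice in 3 groups of 4. Livers were lysed, mRNA was captured on poly-T beads, and libraries from a kit that does not mark strand were read as pairs of 150 bp. The submitters' processing notes name Bowtie2 2.2.1, RSEM 1.2.18 and mm10. The authors deposited whole-number scores that had been normalized between mice by a step not given in the sources used here. They are not raw counts, so no count model was fitted, and depth, counting error and floors are unknown. Columns of per-sample values not used numbered 0. No identical mice were found (highest correlation between mice 0.9808).

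A linear model of log2(score + 1) over 11289 genes and all 12 mice was run in limma 3.58.1 (R 4.3.3), with the trend option of eBayes. Intervals are 95%. Exact permutation tests used all 70 regroupings in scipy 1.17.1. The code was tested on simulated data. No source pools or splits animals between samples, and p-values measure the spread between these samples.

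The members and the lists were chosen with earlier results of these data known, so counts over them are descriptions. Genes named beside the members are, in each list, up to 4 per comparison with the largest change among those called, and the 3 genes most like each member. Stat3, the marker genes and some genes named because their call changed without Con A + PBS mouse 4 fall outside this rule. Genes named with values although not called (Pck2, G6pc3, Creb1, Crtc2, Hnf4a, Foxo1 and others) were added after their values were seen. Results of some list genes are not reported here. Pde4d had 2 rows of the same name and was left out. The labels do not say that replicate numbers mark a shared animal, litter or day, and the alternatives are given in the closing section. Promoter windows are from RefSeq (GRCm38.p6), and all 8 members matched a window.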

Additional observations from a re-analysis of the deposited data

Results flagged for a closer look

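Of 24 groups of 4 mice (8 genes in 3 groups), 1 held a mouse far from the others, where chance alone gives about 1 in 20. Con A + PBS mouse 3 had a G6pc score of 2209, and the other Con A + PBS mice had 1556, 1518 and 1549. Its gap to the nearest mouse was 0.934 of the range of the group, above Dixon's 95% critical value for 4 samples. Without this mouse the fall of G6pc with Con A was still called (log2 fold change -1.70, adjusted p 0.000281 in limma), and hWJ-MSCs livers differed from Con A + PBS livers by -0.54 (adjusted p 0.171 in limma).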

How the results depend on the processing

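With Con A against control, 6 of 8 genes were called under quantile normalization, median centring, a pseudocount of 10, a filter at a mean score of 100, a fit of only the 8 mice compared, an unadjusted p and a replicate block, and 5 to 6 when each mouse was left out. A fold change above 2 gave 3. With hWJ-MSCs against Con A + PBS the 3 calls became 5 with an unadjusted p below 0.05 (15.0% of all genes), 1 at a fold change above 2, and 0 to 3 without single mice, with 0 without Con A + PBS mouse 1, hWJ-MSCs mouse 2 or hWJ-MSCs mouse 3 and 1, Slc2a2, without Con A + PBS mouse 3 or 4, hWJ-MSCs mouse 1 or 4 or control mouse 2. Without a trend in eBayes, Slc37a4 was lost (adjusted p 0.0553 in limma). Against control hWJ-MSCs gave 2 to 4 without single mice. Pcx reversed there, to -0.0451 without control mouse 1, from a value that had not been called, and was 0.26 without control mouse 4. In the lists, the 16 genes called with hWJ-MSCs against Con A + PBS became 26 with the replicate block and 0 to 32 without single mice. They became 30 with an unadjusted p (15.0% of all genes) and 5 at a fold change above 2 (3.13%). The 34 of 96 called against control (26.7% of all genes) became 10 at a fold change above 2 (13.6%) and 29 to 38 without single mice. The 44 called with Con A became 30 at a fold change above 2 (21.2% of all genes) and 41 to 48 without single mice. The cause of these shifts was not tested.

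The deviations of mice with the same replicate number correlated at -0.118 to 0.375 over 12 such pairs. Of these 4 were over 0.1, among them the 3 pairs of number 4, against 3 of 36 other pairs (highest 0.141), and 3 of 12 mice correlated best with their own number. Since not every pair passed 0.1, the numbers were not taken to pair the mice. With the replicate block, the count of members called remained 3 in the second comparison, with Slc37a4 lost (adjusted p 0.0578 in limma) and Gcgr gained (adjusted p 0.0291), and no other member call changed. Median centring and quantile normalization do not test the scaling, since the scores had already been normalized between mice. Steps between high scores limit what can be seen for Fbp1, Pck1 and Pcx.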

Other observations

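Liver zonation genes were read because gluconeogenesis is strongest in periportal hepatocytes. All 10 pericentral markers fell with Con A against control, where 19.2% of all genes fell, and 6 of 10 periportal markers did. Among pericentral markers, Cyp1a2 fell 20.9-fold and Glul, the glutamine synthetase gene, 5.75-fold. Glul had scores of 7966, 10972, 12230 and 12230 in control mice 1 to 4, 1926, 2004, 1741 and 1782 in Con A + PBS mice, and 1629, 3273, 1629 and 1558 in Con A + hWJ-MSCs mice. Control mice stood above all others, and the other groups overlapped. Among periportal markers, Gls2, the liver glutaminase gene, fell 5.07-fold and Ass1, an enzyme of the urea cycle, 5.43-fold. In limma 0 of 10 pericentral markers were called between hWJ-MSCs and Con A + PBS livers, and 1 passed at an unadjusted p below 0.05 with the same fold change. Of the 10 periportal markers 1 was called, Hsd17b13 (log2 fold change 0.74, adjusted p 0.0252 in limma), and 4 passed at the unadjusted p. These counts stand beside 8.58% of all genes called and 15.0% at the unadjusted p. The count of periportal markers called was 0 without Con A + PBS mouse 1 or 4 or hWJ-MSCs mouse 1, 2 or 3. It was 3 without Con A + PBS mouse 2 or hWJ-MSCs mouse 4. Whether the zones moved differently was not tested, and the part of these changes in those of the gluconeogenesis genes was not tested.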
